A study of Mus musculus with 18 samples.

Results

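The combination of a PI3K inhibitor and a SHP2 inhibitor was compared with vehicle in 4T1 tumors, using the 5 tumors labelled PI3Ki+SHP2i (Combo) and the 5 labelled Vhc (Vehicle), which are 10 of the 18 tumors of the series. All genes that passed a filter on low counts were compared, 15282 of the 22792 in the count tables. The 4T1 line comes from a mouse mammary carcinoma of triple-negative type, and 300000 cells in 50 µL were placed in the mammary fat pad of female Balb/c mice aged 8 weeks. The hosts kept their own immune system, so a tumor held the cells of 1 injected line together with stromal and immune cells of the mouse. Combo mice received the pan-PI3K inhibitor CLR457 at 20 mg/kg 2 times a day together with a daily dose of 100 mg/kg of the allosteric SHP2 inhibitor SHP099, both by gavage from day 7, and Vehicle mice received the carrier alone. Tumors were taken on day 21, 3 h after the last dose. A further 4 tumors had received CLR457 alone (PI3Ki) and 4 had received SHP099 alone (SHP2i), and they were used only to set single-inhibitor values beside those of the combination. Each tumor is 1 library, and the spread between tumors therefore includes every difference between mice and between pieces of tissue.

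Class I PI3K makes a membrane lipid that recruits the kinase AKT. AKT keeps FOXO transcription factors out of the nucleus, and through mTORC1 it favors the processing of SREBP factors, which switch on the enzymes of cholesterol synthesis. When PI3K signaling is low, FOXO factors enter the nucleus and raise insulin receptor, IRS adaptors and ERBB3, a feedback known from many carcinoma lines. SHP2, the phosphatase encoded by Ptpn11, passes signals from receptor tyrosine kinases to RAS and the ERK kinases, which drive immediate-early genes such as Fos and Egr1 and their own inhibitors of the DUSP and SPRY families. Both enzymes also act in the immune and endothelial cells of a tumor.

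Combo differed from Vehicle in 1659 of the 15282 genes tested (10.9%), where a call needed an adjusted p under 0.05 and a log2 fold change above 1 in size, with 610 genes higher (3.99%) and 1049 lower (6.86%). With the adjusted p as the single criterion, the measure used below for members of a gene list, 3650 genes were higher (23.9%) and 3007 lower (19.7%), and the median of the log2 fold changes over all genes tested was 0.023. The shares of 23.9% and 19.7% are the background for every count of list members below. In 2366 genes (15.5%) every Combo tumor lay above every Vehicle tumor, and in 2045 genes (13.4%) every Combo tumor lay below. Levels are given as CPM, counts scaled to a common library size, in the order of replicates 1 to 5. Fold changes are log2 values of Combo against Vehicle with a standard error derived from the test statistic. Combo differed from SHP2i in 699 genes (4.57%) and from PI3Ki in 1696 genes (11.1%) at the same limits. PI3Ki and SHP2i are compared below with the same 5 Vehicle tumors as Combo, so the 3 sets of values are not independent of each other. Markers of other tissues and cells also differed between these groups. The summed level of 20 skeletal muscle genes was 1120 to 2518 CPM in PI3Ki, 115 to 137 CPM in SHP2i, 112 to 199.7 CPM in Combo and 112 to 224 CPM in Vehicle, so every PI3Ki tumor lay above every other tumor. That of 12 B and plasma cell genes was 14.6 to 350.4, 19.4 to 38.4, 17.9 to 640.5 and 52.8 to 150.3 CPM in the same order. Their part in the comparisons with PI3Ki and SHP2i was not tested.

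The 10 tumors carried 21.16 M to 24.79 M counts each, with medians of 23.5 M in Combo and 23.05 M in Vehicle. On the first principal component of the 500 most variable genes (71.6% of the variance) Vehicle tumors lay between -35.43 and -22.45 and Combo tumors between 14.76 and 52.58. The second component (13.1%) set Combo replicates 3 and 4 apart from the other 3. B and plasma cell genes differed between the same tumors, since the mean log2 level of that list relative to the Vehicle mean was -4.17, -3.57, 0.67, 1.35 and -3.99 in Combo replicates 1 to 5 and -1.13, 0.49, 0.25, 0.68 and -0.29 in Vehicle. Skeletal muscle genes, which mark tissue next to the tumor, varied within both groups, from -1.51 to 1.45 in Combo and from -1.01 to 1.99 in Vehicle on the same scale. The tumor cells' epithelial genes were present throughout, with Krt8 at 431 to 643 CPM in Vehicle and 336 to 451 CPM in Combo.

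**Figure D1:**
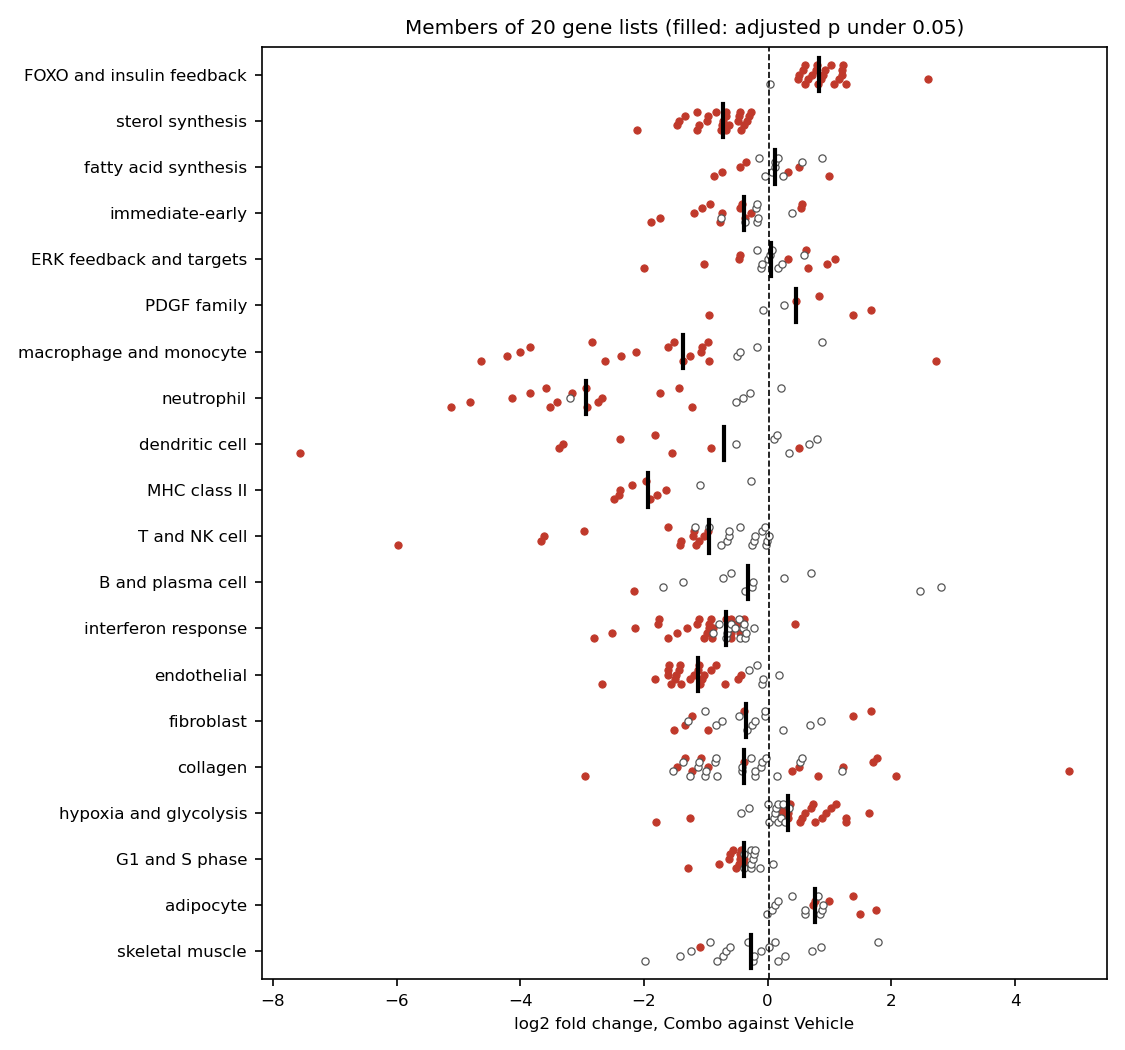
Log2 fold change of Combo against Vehicle (x axis) for each tested member of 20 gene lists (rows). A filled point passed an adjusted p under 0.05, an open point did not, a vertical bar is the median of the list and the dashed line is the median of all genes tested (0.023). The median of the FOXO and insulin feedback genes lay to the right of the line, and those of the sterol synthesis, endothelial, neutrophil and MHC class II genes lay to its left.

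The genes of the inhibited enzymes differed by small amounts. Ptpn11, which encodes SHP2, was at 168, 139.6, 158, 167 and 173 CPM in Vehicle and 173, 199, 174, 183 and 207 CPM in Combo. The ranges overlapped, and the difference was small (log2 fold change 0.21 ± 0.084, adjusted p = 0.0478). Pik3ca, which encodes the catalytic p110 alpha, was at 69.6, 59.3, 68.3, 68.9 and 75.4 CPM in Vehicle and 82.3, 94.7, 86.3, 108 and 100.1 CPM in Combo, without overlap and 0.47 ± 0.08 (adjusted p = 0.000201) higher. The locus of Pik3ca overlaps that of Kcnmb3, so some reads may belong to the latter. CLR457 and SHP099 act on proteins, so transcript levels of their targets do not measure the inhibition. The call of Ptpn11 was lost without Vehicle replicate 1, 2, 3 or 4 or Combo replicate 2, 4 or 5 (adjusted p from 0.0603 to 0.15).

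Of 32 genes of the PI3K pathway core, 14 were higher and 6 lower, with a median log2 fold change of 0.29. The risers held both drivers and brakes of the pathway. Rictor, a subunit of mTORC2, rose by 0.78 ± 0.14. The largest rise among the 6 members with the smallest p was that of Pik3ip1, an inhibitor of PI3K described below. Inpp5d, which encodes SHIP1, a lipid phosphatase of blood cells, went the other way. It was at 60.9, 75.7, 70.8, 84.96 and 85.8 CPM in Vehicle and 11.99, 21.7, 31.7, 23.7 and 6.46 CPM in Combo, and fell by 1.99 ± 0.31 (adjusted p = 8.46e-05). Akt1 differed by -0.061 ± 0.08 (adjusted p = 0.565), which did not pass the test.

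The SHP2, RAS and ERK core of 25 genes had 11 higher and 7 lower members, beside 23.9% and 19.7% of all genes. Frs2, the docking protein of FGF receptors, was at 37.2 to 49.7 CPM in Vehicle and 66.4 to 83.7 CPM in Combo (0.83 ± 0.11). Sos1, an exchange factor that activates RAS, and Braf, a kinase downstream of RAS, rose by 0.57 ± 0.105 and 0.64 ± 0.103. Ptpn6 encodes SHP1, the relative of SHP2 in blood cells, and dropped from 123 ± 18.8 CPM (SD, n = 5) to 41.2 ± 5.88 CPM. In a bulk tumor a lower level of such a gene cannot tell fewer cells of a type from less RNA per cell, and this holds for every cell type below. Lower members numbered 4 without Vehicle replicate 4 or Combo replicate 1.

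FOXO targets and insulin receptor feedback genes were higher in nearly every case. Of 22 genes, 21 were higher in Combo and 0 lower, against 23.9% and 19.7% of all genes, and the median log2 fold change was 0.84. In 14 of them every Combo tumor lay above every Vehicle tumor, as in 15.5% of all genes. The member that did not pass was Foxo1, which was named after its value was seen (0.032 ± 0.15, adjusted p = 0.885). The list's median was 0.397 in PI3Ki and -0.001 in SHP2i against the same Vehicle tumors. Its mean log2 level relative to the Vehicle mean was 0.563 to 0.65 in PI3Ki, -0.13 to 0.109 in SHP2i and 0.642 to 1.143 in Combo.

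Irs1 and Insr are the adaptor and the receptor at the head of insulin signaling. Irs1 (chr1:82233105-82291439 in build GRCm38.p6, as for the gene positions below) was at 66.6, 52.5, 61.2, 66.9 and 67.8 CPM in Vehicle and 129, 141, 120.4, 165 and 144 CPM in Combo. Every Combo tumor held more than every Vehicle tumor, and the log2 fold change was 1.15 ± 0.13 (adjusted p = 4.46e-06). Insr was at 58.4, 43.3, 60.6, 58.7 and 74.3 CPM and 108, 111, 101, 112 and 128 CPM (0.92 ± 0.11, adjusted p = 7.33e-06). Irs1 did not pass the test in PI3Ki alone (-0.006 ± 0.14, adjusted p = 0.988) or in SHP2i alone (0.33 ± 0.14, adjusted p = 0.115), and it was higher in Combo than in PI3Ki by 1.16 ± 0.14 (adjusted p = 1.33e-05) and than in SHP2i by 0.82 ± 0.14 (adjusted p = 0.000766). Insr was higher than Vehicle in PI3Ki alone as well (0.49 ± 0.12, adjusted p = 0.0197), and Combo exceeded PI3Ki by 0.44 ± 0.12 (adjusted p = 0.00707). Igf1r, the receptor for the insulin-like growth factors, rose by 0.78 ± 0.12 (adjusted p = 8.04e-05).

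Foxo3, itself a member of the factor family, was at 44.8 to 66.4 CPM in Vehicle and 89.5 to 158 CPM in Combo (1.07 ± 0.14). Pik3ip1, whose product binds and inhibits PI3K, was at 15.6, 18.7, 23.6, 22.3 and 25.6 CPM in Vehicle and 51.99, 30.9, 41.5, 66.6 and 53.05 CPM in Combo. The lowest Combo tumor, replicate 2, still lay above the highest Vehicle tumor, and the log2 fold change was 1.21 ± 0.18 (adjusted p = 8.08e-05). Bnip3, a mitophagy receptor, rose by 1.03 ± 0.17, and Cdkn1b, the cyclin-dependent kinase inhibitor p27, rose by 0.48 ± 0.07 (adjusted p = 4.71e-05) with no overlap. Txnip, an arrestin-like protein that limits glucose uptake, was 0.65 ± 0.16 higher but its ranges overlapped, at 151 to 237 CPM and 213 to 387 CPM. Bmf, a BH3-only killer protein also known as a FOXO target, was at 9.74, 12.1, 18.6, 12.4 and 17.01 CPM and 27.6, 25.9, 24.8, 42.5 and 57.6 CPM (1.35 ± 0.22, adjusted p = 0.000145).

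**Figure D2:**
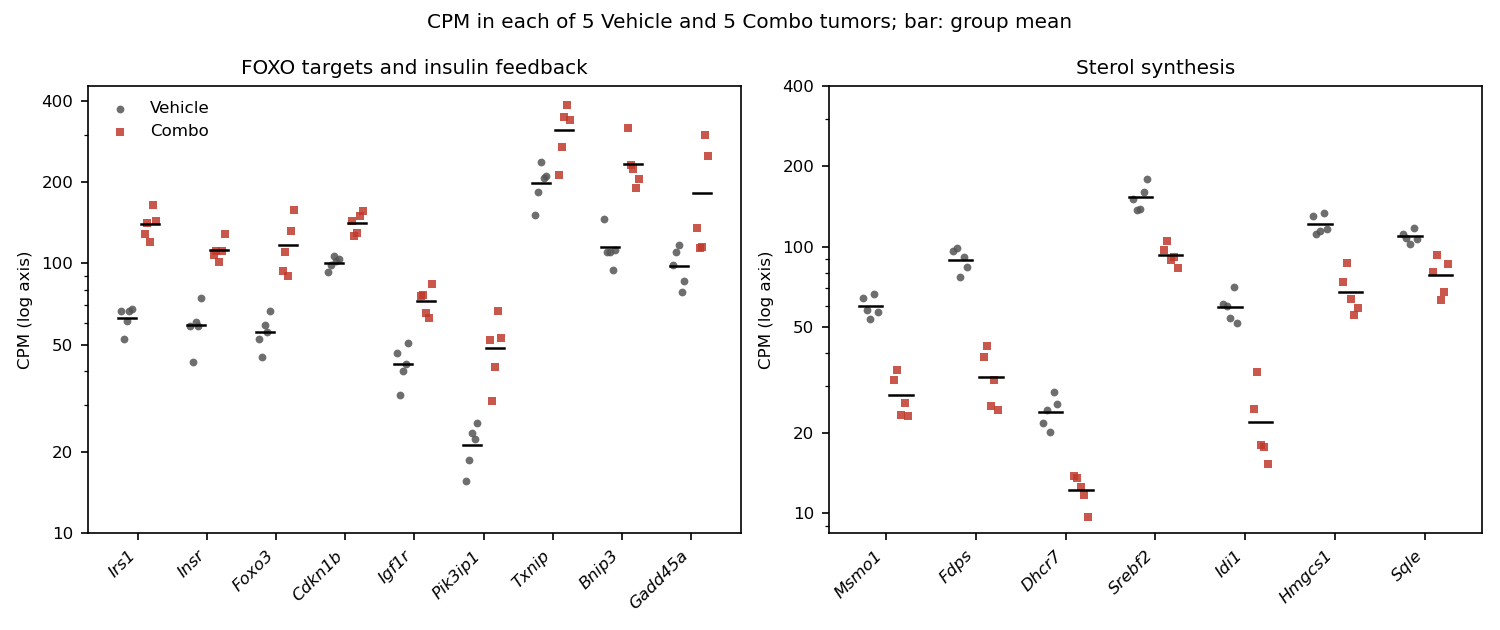
CPM (log axis) of 9 FOXO and insulin feedback genes (left) and 7 sterol synthesis genes (right) in each of the 5 Vehicle and 5 Combo tumors, with a bar at the group mean. In 14 of the 16 genes the points of the groups do not overlap, and the exceptions are Txnip and Gadd45a.

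Cholesterol synthesis genes fell without exception among those listed. All 25 tested genes of the list were lower at an adjusted p under 0.05, where 19.7% of all genes were, and the median was -0.72 on the log2 scale. In 19 of them every Combo tumor lay below every Vehicle tumor, where 13.4% of all genes did so. Fdps (chr3:89093588-89101967), which makes farnesyl diphosphate, was at 96.1, 99.05, 76.8, 91.7 and 83.7 CPM in Vehicle and 38.6, 42.5, 25.3, 31.6 and 24.4 CPM in Combo, and fell by 1.46 ± 0.16 (adjusted p = 4.11e-06). Idi1, the isomerase just before it, was at 60.8, 60.05, 53.9, 70.4 and 51.6 CPM and 24.6, 33.9, 18.1, 17.8 and 15.4 CPM and fell by 1.44 ± 0.19 (adjusted p = 1.71e-05). Replicate 2 was the highest Combo tumor in both genes and still lay below Vehicle.

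Hmgcs1, an early enzyme of the pathway, fell by 0.84 ± 0.12, Msmo1 and Dhcr7 in the later steps fell (-1.11 ± 0.12 and -0.97 ± 0.11), and Sqle changed least of the 7 members named (-0.48 ± 0.105). Srebf2, the transcription factor of the pathway, was lower too, at 83.3 to 105 CPM against 138 to 179 CPM. The list's median was -0.499 in PI3Ki and -0.042 in SHP2i against the same Vehicle tumors. For Hmgcs1 the values were -0.76 ± 0.13 (adjusted p = 0.002) in PI3Ki and -0.025 ± 0.13 (adjusted p = 0.916) in SHP2i, and Combo lay below SHP2i (log2 difference -0.82 ± 0.13, adjusted p = 0.000439), whereas its difference from PI3Ki did not pass the test (-0.086 ± 0.13, adjusted p = 0.627). Fdps was lower in Combo than in PI3Ki (log2 difference -0.68 ± 0.17, adjusted p = 0.00473), while Sqle was higher in Combo than in PI3Ki, by 0.304 ± 0.11 (adjusted p = 0.0409). Genes of fatty acid synthesis did not follow, with 3 of 16 higher and 4 lower, near the 23.9% and 19.7% of all genes. Fasn, the fatty acid synthase, differed by -0.04 ± 0.24 (adjusted p = 0.907), the desaturase gene Fads2 fell by 0.74 ± 0.15, and Acacb, a mitochondrial acetyl-CoA carboxylase, rose by 0.99 ± 0.15.

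Promoters of 4 members of the FOXO, sterol and interferon lists are shown because each holds letters known from the factors named above or, for the interferon genes described further on, from interferon signaling. They are RefSeq sequences of build GRCm38.p6, from 250 bases before to 50 bases after the start, 5′ to 3′ on the strand of the gene, with the matched letters in capitals. The FOXO site GTAAACA is marked in Txnip at chr3:96557707-96558006, plus strand, the sterol response element TCACNCCAC in Hmgcs1 at chr13:119690101-119690400, plus strand, and the interferon response element core GAAANNGAA in Cxcl10 at chr5:92348840-92349139, minus strand and in Oas1a at chr5:120907476-120907775, minus strand.
Txnip: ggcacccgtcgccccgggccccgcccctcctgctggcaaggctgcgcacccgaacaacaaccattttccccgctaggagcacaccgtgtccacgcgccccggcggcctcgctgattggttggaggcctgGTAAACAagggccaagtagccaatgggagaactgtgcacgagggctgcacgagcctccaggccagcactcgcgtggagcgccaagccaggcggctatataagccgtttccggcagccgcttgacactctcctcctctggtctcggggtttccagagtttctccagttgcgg
Hmgcs1: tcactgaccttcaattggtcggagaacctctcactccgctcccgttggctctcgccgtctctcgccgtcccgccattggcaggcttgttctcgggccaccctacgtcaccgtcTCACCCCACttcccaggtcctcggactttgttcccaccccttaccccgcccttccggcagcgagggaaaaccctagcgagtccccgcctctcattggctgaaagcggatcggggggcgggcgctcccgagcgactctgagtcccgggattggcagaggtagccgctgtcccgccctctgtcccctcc
Cxcl10: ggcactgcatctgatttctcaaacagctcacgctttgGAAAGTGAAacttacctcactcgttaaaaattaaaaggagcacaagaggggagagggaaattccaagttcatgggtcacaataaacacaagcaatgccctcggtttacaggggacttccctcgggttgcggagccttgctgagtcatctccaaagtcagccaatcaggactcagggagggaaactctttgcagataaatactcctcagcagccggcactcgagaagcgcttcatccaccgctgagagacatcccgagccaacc
Oas1a: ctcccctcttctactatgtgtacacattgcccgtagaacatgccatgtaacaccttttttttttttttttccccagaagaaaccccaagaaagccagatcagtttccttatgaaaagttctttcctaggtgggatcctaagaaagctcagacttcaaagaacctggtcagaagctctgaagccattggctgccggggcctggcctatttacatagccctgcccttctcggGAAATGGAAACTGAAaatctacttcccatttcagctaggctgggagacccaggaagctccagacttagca

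Both strands were searched, and 12029 of the 15282 genes tested had a promoter in the table. GTAAACA stood in 16.7% of the 18 promoters of the FOXO and insulin feedback list (3 promoters), in 2.48% of all promoters and in 3.43% and 3.28% of those of genes called higher and lower in Combo. In the other lists searched, GTAAACA stood in 0.0% (sterol synthesis) to 10.5% (neutrophil, 2 of 19) of the promoters. TCACNCCAC stood in 1 of 17 sterol synthesis promoters and in 1.08% of all promoters. GAAANNGAA stood in 17 of 28 interferon promoters (60.7%), in 7.37% of all promoters, in 13.5% of those of genes called lower in Combo and in 6.86% of those called higher. Some other motifs also differed between these sets. The AP-1 site TGANTCA stood in 5.62% of all promoters and in 10.1% and 7.09% of those called lower and higher. For the ETS site CCGGAAGT these shares were 7.4%, 1.71% and 1.37%, and for TCACNCCAC 1.08%, 1.05% and 1.14%. The letters are a description of these windows and do not show that a factor was bound.

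Immediate-early genes, the first transcripts that ERK signaling induces, fell in 11 and rose in 2 of 20 cases. Egr1 was at 40.4, 26.7, 34.7, 35.1 and 35.9 CPM in Vehicle and 7.92, 8.54, 14.97, 9.67 and 5.801 CPM in Combo. The groups lay far apart, and Egr1 fell by 1.88 ± 0.22 (adjusted p = 6.8e-06). Fos was at 37.9, 23.9, 44.7, 29.9 and 38.3 CPM and 16.3, 14.1, 20.6, 13.8 and 11.4 CPM, and fell by 1.197 ± 0.22 (adjusted p = 0.000361). Egr1 was at 0.18 ± 0.22 (adjusted p = 0.729) against Vehicle in PI3Ki alone and -0.38 ± 0.23 (adjusted p = 0.273) in SHP2i alone, and Combo lay below SHP2i (log2 difference -1.496 ± 0.23, adjusted p = 0.000377). Egr3 and Ier2 fell (-1.75 ± 0.38 and -0.93 ± 0.12), and Zfp36, which encodes an mRNA decay factor, fell by 1.06 ± 0.21. Jun and Fosl2, which encode other AP-1 subunits, rose by 0.54 ± 0.101 and 0.55 ± 0.096. Myc differed by -0.18 ± 0.094 (adjusted p = 0.128). Myc passed the test without Combo replicate 4 (adjusted p = 0.0272).

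Of 18 feedback inhibitors and targets of ERK, 5 were higher and 4 lower, near the 23.9% and 19.7% of all genes tested. Dusp5, a nuclear ERK phosphatase, was at 19.7, 16.8, 16.4, 14.2 and 14.7 CPM in Vehicle and 3.02, 3.62, 6.81, 3.84 and 3.10 CPM in Combo, without overlap (-2.0 ± 0.21, adjusted p = 1.93e-06). Dusp6, its cytoplasmic relative and a common readout of ERK output, was at 276, 290.4, 283, 279 and 259 CPM and 161, 222, 166, 262 and 205 CPM. One Combo tumor, replicate 4, lay inside the Vehicle range, and Dusp6 fell by 0.45 ± 0.12 (adjusted p = 0.00587). In SHP2i alone Dusp6 was lower (log2 difference -0.69 ± 0.13, adjusted p = 0.00241), and the difference between Combo and SHP2i did not pass the test (0.24 ± 0.13, adjusted p = 0.187). Etv5 was at -0.46 ± 0.12 in Combo and -0.95 in SHP2i, and was higher in Combo than in SHP2i by 0.49 ± 0.13 (adjusted p = 0.0153). Spry4 fell by 1.03 ± 0.16, but Spry1, of the same family of signaling inhibitors, was at 129, 129.8, 164, 137 and 158 CPM and 216, 234, 198, 399 and 475 CPM and rose by 1.09 ± 0.23 (adjusted p = 0.00102). Etv1 rose by 0.96 ± 0.14, and Fosl1 and Ccnd1, the cyclin D1 gene, differed by -0.17 ± 0.13 and 0.004 ± 0.12.

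Among receptors and ligands that feed both pathways, 3 of the 4 EGF receptor genes rose. Egfr was at 39.1, 28.7, 35.7, 31.96 and 40.7 CPM in Vehicle and 88.01, 95.6, 73.5, 75.2 and 71.03 CPM in Combo, without overlap (1.195 ± 0.13, adjusted p = 3.62e-06), and it was higher in SHP2i alone too (0.88 ± 0.14, adjusted p = 0.000701), with a difference between Combo and SHP2i that did not pass (0.32 ± 0.14, adjusted p = 0.107). Erbb3 was at 5.82, 5.44, 4.45, 5.09 and 4.93 CPM and 22.01, 6.26, 11.01, 15.98 and 6.86 CPM. Replicates 1, 3 and 4 of Combo were well above Vehicle and replicates 2 and 5 just above it, for 1.27 ± 0.41 (adjusted p = 0.019). Erbb2 rose by 0.52 ± 0.11. The ligand gene Hbegf fell by 0.55 ± 0.13, and Areg, Tgfa and Nrg1 did not pass the test, at -0.39 ± 0.76, -0.27 ± 0.15 and 0.17 ± 0.22. The call of Erbb3 was lost without Combo replicate 1 (adjusted p = 0.0645).

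Igf2, insulin-like growth factor 2, was at 39.4, 49.8, 54.1, 65.4 and 51.3 CPM in Vehicle and 185, 222, 166, 252 and 382 CPM in Combo. All 5 Combo tumors held more than any Vehicle tumor, and the log2 fold change was 2.21 ± 0.29 (adjusted p = 1.82e-05). In PI3Ki alone it was -0.76 ± 0.303 (adjusted p = 0.171) and in SHP2i alone 1.46 ± 0.29 (adjusted p = 0.0046), and Combo exceeded PI3Ki by 2.97 ± 0.33 (adjusted p = 5.51e-06). The gene shares part of its locus with the antisense transcript Igf2os. Igfbp3, which binds and sequesters these factors, was at 464, 300.4, 359, 308 and 386 CPM and 126, 83.1, 107, 98.2 and 81.9 CPM and fell by 1.87 ± 0.22 (adjusted p = 5.71e-06). Igfbp2 and Igfbp5 fell (-1.31 ± 0.37 and -1.27 ± 0.42), and Igfbp4 and Igfbp7 rose by 0.65 ± 0.14 and 0.41 ± 0.102. Igf1 did not pass the test (0.85 ± 0.36, adjusted p = 0.0687). The call of Igfbp5 was lost without Combo replicate 4 or 5 (adjusted p from 0.0516 to 0.0528), and Igf1 passed the test without Combo replicate 1, 4 or 5 (adjusted p from 0.0322 to 0.0494).

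The PDGF family had 4 of 7 members higher and 1 lower. Pdgfra, the receptor of mesenchymal cells, was at 169, 146, 237, 201 and 236 CPM in Vehicle and 464, 546, 492, 604 and 1026 CPM in Combo, with replicate 5 the highest, and rose by 1.66 ± 0.21 (adjusted p = 1.26e-05). Pdgfrb differed by 0.26 ± 0.19 (adjusted p = 0.285), with overlapping ranges of 142 to 219 CPM and 147 to 303 CPM. The ligands split. Pdgfa was at 242, 197, 165, 202 and 174 CPM and 522, 454, 381, 634 and 566 CPM (1.38 ± 0.14, adjusted p = 2.22e-06), and Pdgfc rose by 0.83 ± 0.12 (adjusted p = 5.34e-05). Pdgfb, the main ligand of the beta receptor, was at 111, 94.7, 102, 92.3 and 108 CPM and 43.1, 58.5, 51.6, 52.6 and 58.2 CPM and fell by 0.94 ± 0.103 (adjusted p = 3.32e-06), and it was lower in PI3Ki alone too (-0.59 ± 0.11, adjusted p = 0.00378) but not detectably so in SHP2i (0.057 ± 0.11, adjusted p = 0.758). Pdgfd differed by -0.072 ± 0.24 (adjusted p = 0.832). Pdgfa exceeded both single inhibitors, PI3Ki by 1.63 ± 0.16 (adjusted p = 1.82e-06) and SHP2i by 1.09 ± 0.15 (adjusted p = 0.000224).

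Other receptor tyrosine kinases showed no common direction, with 6 of 27 higher and 6 lower, near the 23.9% and 19.7% of all genes. Ror1, a WNT5A receptor, rose by 1.26 ± 0.26 (adjusted p = 0.000863), Axl differed by -0.035 ± 0.11 (adjusted p = 0.816), and Fgfr1 and Shc1, the adaptor gene, rose by 0.29 ± 0.12 and 0.29 ± 0.096. Ephb1 was low in Vehicle at 0.779 to 1.48 CPM and lower in Combo at 0.0447 to 0.204 CPM. The FGF ligand Fgf1 was at 6.24 to 9.29 CPM in Vehicle and 11.4 to 44.8 CPM in Combo and rose by 1.67 ± 0.31 (adjusted p = 0.00044). Epha7 differed by 0.33 ± 0.603 (adjusted p = 0.685). The call of Fgfr1 was lost without Vehicle replicate 2, 3 or 4 or Combo replicate 2, 3 or 5 (adjusted p from 0.0576 to 0.165), and that of Shc1 without Vehicle replicate 1 or Combo replicate 5 (adjusted p from 0.0603 to 0.0647).

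Many of the deepest falls were in genes of myeloid cells. Of the 15 genes with the largest falls among those without overlap, Fpr2, Clec12a, Siglece, Slamf9, Treml4, Clec4a2, Lilra5, Sirpb1a and Sirpb1c encode receptors of neutrophils, monocytes, macrophages or dendritic cells. Slamf9 was at 15.3, 22.8, 20.5, 32.6 and 27.2 CPM in Vehicle and 0.306, 0.224, 0.571, 0.216 and 0.0886 CPM in Combo and fell by 6.36 ± 0.35 (adjusted p = 8.02e-09). Clec12a, an inhibitory lectin receptor, was at 11.4, 22.1, 28.2, 37.9 and 31.3 CPM and 0.613, 1.07, 0.775, 0.216 and 0.221 CPM and fell by 5.49 ± 0.54 (adjusted p = 1.15e-06). Treml4 was at 5.68, 10.1, 13.4, 11.7 and 12.4 CPM in Vehicle and between 0 and 0.0447 CPM in Combo, too few counts for a fold. Ocstamp, a fusion protein of osteoclasts and giant cells, fell by 6.21 ± 0.42, from 14.49 ± 3.35 CPM (SD, n = 5) to 0.191 ± 0.0913 CPM. The folds of Slamf9, Clec12a and Ocstamp also rest on low levels in Combo, so their size is uncertain. Sirpb1a and Sirpb1c are near-identical copies, so reads may have been split between them. Slamf9 was lower in Combo than in either single-inhibitor group, than SHP2i (log2 difference -2.55 ± 0.37, adjusted p = 0.000242) and than PI3Ki (log2 difference -4.98 ± 0.35, adjusted p = 9.64e-08).

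**Figure D3:**
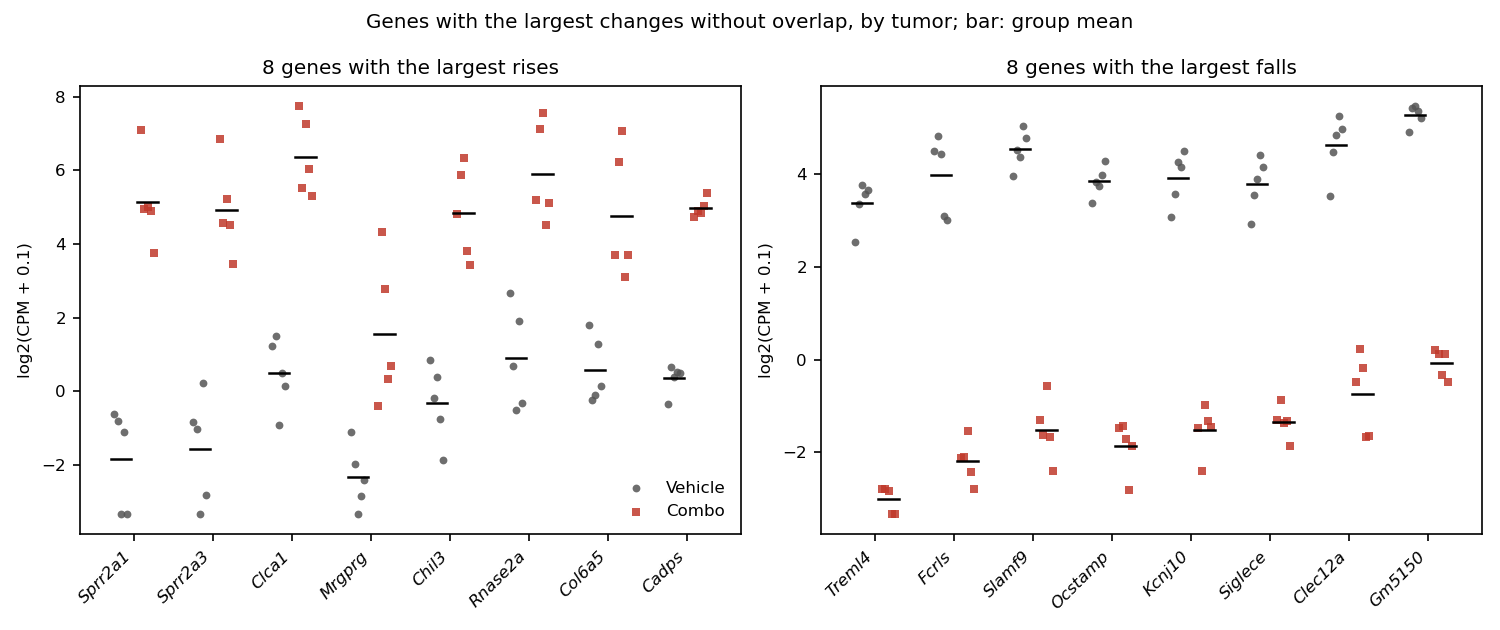
Log2 of CPM plus 0.1 for 8 of the 15 genes with the largest rises (left) and 8 of the 15 with the largest falls (right) in each tumor, with a bar at the group mean. The genes were picked for not overlapping, so the gap between the groups is no finding, and the plot shows how far Combo tumors differed among themselves.

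Macrophage and monocyte genes fell in 16 of 21 cases and rose in 1, with a median log2 fold change of -1.37. That median was -0.97 in SHP2i and 0.079 in PI3Ki against the same Vehicle tumors. Their summed level was 4080 to 5405 CPM in Vehicle and 1118 to 3660 CPM in Combo. Fcgr1, the high-affinity IgG receptor, was at 68.8, 100.4, 80.2, 104 and 95.04 CPM in Vehicle and 4.03, 5.05, 5.06, 2.42 and 1.37 CPM in Combo and fell by 4.64 ± 0.37 (adjusted p = 1.7e-07). Msr1, a scavenger receptor, was at 197, 257, 239, 261 and 256 CPM and 20.6, 18.6, 16.9, 6.78 and 2.303 CPM (-4.21 ± 0.41). Ccr2, which draws monocytes out of the blood, was at 91.1 to 163 CPM in Vehicle and 1.46 to 15.3 CPM in Combo (-4.002 ± 0.46). The complement genes C1qa and C1qb fell (-2.13 ± 0.298 and -2.62 ± 0.33), and Apoe fell by 0.95 ± 0.31. The call of Apoe was lost without Combo replicate 1 (adjusted p = 0.0504).

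Not all macrophage genes fell. Mrc1 was at 192, 174, 206, 153 and 164 CPM in Vehicle and 196, 586, 578, 133 and 138 CPM in Combo, with replicates 2 and 3 high and the others within or just below the Vehicle range (0.88 ± 0.43, adjusted p = 0.108). Cd163, the hemoglobin scavenger receptor, was the riser of the list, named after its value was seen. It was at 67.4, 46.8, 68.98, 55.6 and 41.0 CPM and 122, 748, 681, 149 and 137 CPM, again highest in replicates 2 and 3, and rose by 2.72 ± 0.53 (adjusted p = 0.000617). Chil3, a chitinase-like protein of alternatively activated macrophages, followed the same tumors, with 1.71, 0.782, 1.22, 0.492 and 0.174 CPM in Vehicle and 27.9, 58.7, 81.2, 13.99 and 10.6 CPM in Combo (5.46 ± 1.05, adjusted p = 0.00054). Cd209e and Rnase2a, a lectin and a secreted ribonuclease, were also highest in replicates 2 and 3 and rose by 2.77 ± 0.63 and 5.05 ± 0.86. Adipocyte genes were high in the same replicates, the list's mean log2 level relative to Vehicle being 0.12, 1.08, 1.76, -0.55 and -0.003 in Combo, and their part in these values was not tested. Mrc1 passed the test without Combo replicate 4 (adjusted p = 0.0491), and the number of risers in the list was 2 without Combo replicate 4.

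Neutrophil genes fell in 15 of 20 cases and rose in 0, the lowest median of these lists at -2.94. S100a9, a subunit of calprotectin, was at 71.1, 85.9, 112, 53.04 and 47.2 CPM in Vehicle and 12.2, 3.31, 1.71, 2.94 and 0.9299 CPM in Combo, where replicate 1 was highest (-4.13 ± 0.75, adjusted p = 0.000357). Cxcr2, the chemokine receptor that brings neutrophils in, fell by 2.75 ± 0.54 (adjusted p = 0.000625). Mmp8, Mmp9 and Ltf, which encode granule proteins, did not pass the test, at -0.29 ± 0.65, -0.51 ± 0.31 and 0.21 ± 0.78. S100a9 was 1.73 ± 0.67 (adjusted p = 0.157) in PI3Ki and -1.32 ± 0.699 (adjusted p = 0.219) in SHP2i, neither past the threshold, while Combo lay below both, below PI3Ki (log2 difference -5.86 ± 0.81, adjusted p = 4.7e-05) and below SHP2i (log2 difference -2.81 ± 0.75, adjusted p = 0.014). Mmp9 passed the test without Combo replicate 3 (adjusted p = 0.0189).

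MHC class II genes, which serve antigen presentation, fell in 8 of 10 cases. The list's median was -1.93 in Combo, -1.41 in SHP2i and -0.17 in PI3Ki against the same Vehicle tumors. Its mean log2 level relative to the Vehicle mean was -3.77 to -1.32 in Combo and -2.39 to -0.97 in SHP2i, with overlap. H2-Aa, a class II chain, was at 502, 903, 939.6, 1052 and 1190 CPM in Vehicle and 235, 178, 235, 165 and 51.9 CPM in Combo and fell by 2.41 ± 0.36 (adjusted p = 6.79e-05). Ciita, the master activator of class II genes, and Cd74, the invariant chain, fell (-1.79 ± 0.38 and -2.20 ± 0.34). Dendritic cell genes fell in 7 of 14 cases, with a median of -0.71 in Combo, -0.78 in SHP2i and -0.056 in PI3Ki. Clec9a, a receptor of cross-presenting dendritic cells, was at 5.08, 6.18, 8.37, 9.35 and 11.3 CPM and 0.525, 0.626, 0.938, 1.12 and 0.841 CPM (-3.302 ± 0.25, adjusted p = 1.39e-07), and Siglech, a marker of plasmacytoid cells, was at 2.17 to 7.38 CPM and 0 to 0.0438 CPM. Zbtb46 rose by 0.51 ± 0.12, and Ccr7 and Cd209a differed by 0.35 ± 0.35 and 0.16 ± 0.44. Of 16 MHC class I genes 8 fell, and B2m differed by -0.14 ± 0.11 (adjusted p = 0.323). Lower MHC class I genes numbered 5 without Combo replicate 4 or 5 and 2 without both Combo replicates 3 and 4.

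Cytokine genes fell in 10 and rose in 2 of 19 cases. Il1b was at 91.2, 93.3, 112, 94.6 and 70.1 CPM in Vehicle and 9.54, 12.2, 8.53, 5.14 and 2.97 CPM in Combo (-3.58 ± 0.34, adjusted p = 9e-07). Tnf was at 2.35, 3.599, 2.79, 3.24 and 4.01 CPM and 0.263, 0.224, 0.5303, 0.173 and 0.0443 CPM (-3.66 ± 0.41, adjusted p = 4.31e-06), and Csf3, the neutrophil growth factor G-CSF, fell, with 11.9 to 20.03 CPM in Vehicle and 1.196 to 5.65 CPM in Combo (-2.297 ± 0.35). Combo was below SHP2i (log2 difference -2.37 ± 0.34, adjusted p = 0.000245) for Il1b, and below both single inhibitors for Tnf, with -1.63 ± 0.44 (adjusted p = 0.0148) against SHP2i and -2.01 ± 0.43 (adjusted p = 0.00175) against PI3Ki. Il33, an alarmin of stromal and epithelial cells, and Il34, a ligand of the CSF1 receptor, rose by 0.84 ± 0.17 and 0.78 ± 0.16. Il6 differed by 0.41 ± 0.53 (adjusted p = 0.562). Chemokines fell in 13 of 30 cases, among them Cxcl16 (-1.73 ± 0.18) and Ccl4 (-2.40 ± 0.46). Ccl8, the riser, was at 75.3 to 139 CPM in Vehicle and 123 to 832 CPM in Combo. The number of chemokine genes that rose was 2 without Combo replicate 2 or 3.

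**Figure D4:**
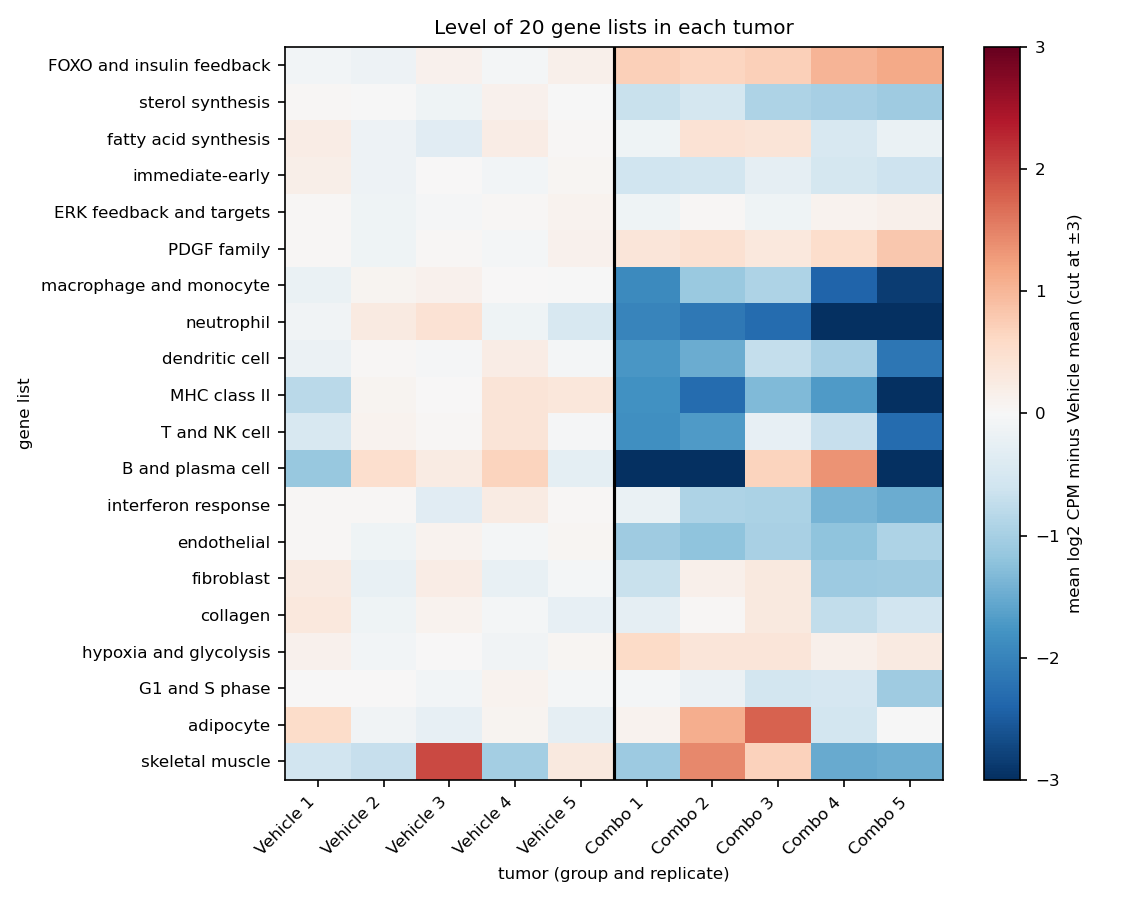
Mean log2 CPM of 20 gene lists in each tumor, relative to the mean of the 5 Vehicle tumors (color scale, log2 units, cut at ±3). Combo columns were uniformly low for sterol synthesis and endothelial genes and uniformly high for FOXO and insulin feedback genes, whereas B and plasma cell, skeletal muscle and adipocyte genes differed among the Combo tumors.

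T and NK cell genes fell in 13 of 28 cases and rose in 0, and 4 of the 6 members with the smallest p were genes of NK cells. The list's median was -0.95 in Combo, -0.86 in SHP2i and 0.003 in PI3Ki against the same Vehicle tumors. Klrk1, the activating receptor NKG2D, was at 8.72, 13.3, 12.9, 17.97 and 17.9 CPM in Vehicle and 1.58, 1.12, 1.55, 0.648 and 0.841 CPM in Combo (-3.62 ± 0.32, adjusted p = 4.12e-07). Ncr1, which marks NK cells, was at 1.396 to 2.66 CPM and 0 to 0.449 CPM, and Klrb1c fell by 3.67 ± 0.36. T cell genes were not uniform. Lck was at 13.8, 21.3, 19.7, 30.2 and 18.2 CPM and 6.52, 5.54, 25.2, 19.2 and 4.65 CPM, where Combo replicates 3 and 4 lay in the Vehicle range (-0.76 ± 0.402, adjusted p = 0.139), and Foxp3, the factor of regulatory T cells, differed by -0.25 ± 0.11 (adjusted p = 0.0648). Combo replicates 3 and 4 were also those with high B cell genes. The mean log2 level of 5 lymph node genes relative to Vehicle was -3.558, -2.988, -1.435, -0.182 and -3.548 in Combo replicates 1 to 5. It was -0.999 to 0.496 in Vehicle, -2.752 to -2.513 in SHP2i and -2.703 to 0.495 in PI3Ki. T cells of the tumor and of lymph node tissue cannot be told apart here, and the part of such tissue was not tested. Jchain, an antibody chain, reached 4.86 to 475 CPM in Combo against 7.76 to 39.2 CPM in Vehicle, and with 1 of 12 B and plasma cell genes lower (Cr2) and none higher the list had no common direction. Lower T and NK cell genes numbered 25 without both Combo replicates 3 and 4. Lck passed the test without Combo replicate 3 (adjusted p = 0.0169), Foxp3 without Vehicle replicate 5 or Combo replicate 4 (adjusted p from 0.0331 to 0.0347) and Jchain without Combo replicate 1 or 5 (adjusted p from 0.0386 to 0.0441). The call of Cr2 was lost without Vehicle replicate 2, 3, 4 or 5 or Combo replicate 1, 2 or 5 (adjusted p from 0.054 to 0.0826), and the number of lower B and plasma cell genes was 0 without Vehicle replicate 2, 3, 4 or 5 or Combo replicate 1, 2 or 5, 2 without Combo replicate 4 and 10 without both Combo replicates 3 and 4, and that of higher ones was 1 without Combo replicate 2 and 2 without Combo replicate 1 or 5.

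Immune checkpoint genes fell in 7 and rose in 2 of 14 cases. Cd86, the costimulator of antigen-presenting cells, was at 17.3, 24.9, 21.98, 23.2 and 24.9 CPM in Vehicle and 4.202, 4.38, 7.38, 5.92 and 1.06 CPM in Combo (-2.29 ± 0.32, adjusted p = 3.06e-05). Vsir, which encodes VISTA, and Havcr2, which encodes TIM-3, fell (-1.43 ± 0.17 and -1.09 ± 0.18). Tigit was at 8.03, 6.53, 5.58, 7.34 and 6.63 CPM and 16.9, 15.3, 21.1, 13.9 and 8.104 CPM and rose by 1.14 ± 0.21 (adjusted p = 0.000357), but it lies within the locus of Zbtb20, so the source of its counts is uncertain. Cd47, the "do not eat me" signal, rose by 0.47 ± 0.085, and Cd274, which encodes PD-L1, differed by 0.018 ± 0.27 (adjusted p = 0.966).

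Interferon response genes fell in 24 and rose in 1 of 39 cases, with a median of -0.68. Cxcl10, a chemokine for T cells whose promoter is printed above, was at 29.8, 39.7, 30.3, 56.4 and 40.3 CPM in Vehicle and 10.6, 6.57, 5.14, 4.36 and 1.55 CPM in Combo, without overlap (-2.801 ± 0.38, adjusted p = 2.29e-05). Oas1a, an antiviral synthetase, was at 61.3, 63.8, 42.9, 57.3 and 51.6 CPM and 35.9, 22.3, 19.2, 18.6 and 15.7 CPM (-1.31 ± 0.25, adjusted p = 0.000534). Irf7, the amplifier of type I interferon, fell by 1.75 ± 0.37 (adjusted p = 0.00114). The list's mean level relative to Vehicle was -0.19, -0.92, -0.95, -1.39 and -1.495 in Combo replicates 1 to 5, nearest to Vehicle in replicate 1. Cxcl10 passed the test neither in SHP2i (-0.205 ± 0.36, adjusted p = 0.745) nor in PI3Ki (-0.91 ± 0.37, adjusted p = 0.18), and Combo lay below SHP2i (log2 difference -2.596 ± 0.39, adjusted p = 0.000293). Macrophage genes fell in the same tumors, and their part in the interferon values was not tested. The number of lower genes was 15 without Vehicle replicate 4 and 11 without both Combo replicates 3 and 4.

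Endothelial genes fell in 23 of 28 cases and rose in 0, with a median of -1.12 and a summed level of 1319 to 1548 CPM in Vehicle and 787 to 938 CPM in Combo. Cdh5 (chr8:104101613-104144504), the adhesion molecule of vessel walls, was at 116, 104, 138, 132 and 145 CPM in Vehicle and 42.1, 38.8, 45.9, 34.1 and 46.5 CPM in Combo. The Combo tumors were tightly grouped far below Vehicle, and Cdh5 fell by 1.61 ± 0.16 (adjusted p = 9.74e-07). Sox18, an endothelial transcription factor, was at 39.5, 38.02, 43.7, 36.02 and 34.3 CPM and 15.6, 9.84, 11.7, 11.5 and 14.4 CPM (-1.603 ± 0.14, adjusted p = 4.58e-07), and Pecam1 fell by 1.06 ± 0.13. The other 5 members of the list did not pass the test, with log2 fold changes from -0.302 to 0.185. Eng was 1 of them (-0.073 ± 0.094, adjusted p = 0.56). Cdh5 was -0.57 ± 0.16 (adjusted p = 0.0512) in PI3Ki and 0.092 ± 0.16 (adjusted p = 0.739) in SHP2i, and Combo lay below PI3Ki (log2 difference -1.04 ± 0.16, adjusted p = 0.000124) and below SHP2i (log2 difference -1.704 ± 0.16, adjusted p = 9.23e-06). The list median was -0.27 in PI3Ki and 0.008 in SHP2i. Nos3, the endothelial nitric oxide synthase, fell by 1.86 ± 0.21 (adjusted p = 4.03e-06).

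Of 27 WNT and Notch genes 8 were higher and 9 lower, beside 23.9% and 19.7% of all genes, and Notch genes were found on both sides. Dll4, the ligand on tip cells, was at 39.1, 32.0, 37.4, 33.4 and 36.5 CPM in Vehicle and 11.5, 10.5, 13.6, 15.8 and 16.5 CPM in Combo (-1.395 ± 0.14, adjusted p = 9.92e-07), Heyl, a Notch target, fell, with 2.21 to 3.05 CPM in Vehicle and 0.0886 to 0.481 CPM in Combo, and the endothelial receptor gene Notch4 fell by 1.33 ± 0.17, whereas the receptor genes Notch2 and Notch3 rose by 0.79 ± 0.15 and 1.15 ± 0.24. The ligand gene Wnt6 was at 83.4, 72.99, 50.6, 73.5 and 56.6 CPM and 371, 313, 275, 302 and 356 CPM, without overlap (2.26 ± 0.23, adjusted p = 1.7e-06), and Combo exceeded PI3Ki by 2.42 ± 0.25 (adjusted p = 3.47e-06) and SHP2i by 1.696 ± 0.24 (adjusted p = 0.000245).

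Angiogenic ligands mostly went the other way, with 6 of 11 higher and 3 lower. Vegfa was at 148, 93.3, 94.97, 90.5 and 93.95 CPM in Vehicle and 333, 190, 371, 143 and 219 CPM in Combo. Replicate 4 of Combo and replicate 1 of Vehicle overlapped, and the rise was 1.27 ± 0.25 (adjusted p = 0.000708). Vegfc, which acts on lymphatic vessels, was at 83.7, 72.5, 85.5, 71.01 and 75.1 CPM and 154, 141, 122, 173 and 206 CPM (1.04 ± 0.12, adjusted p = 4.11e-06), and Angpt1, a TIE2 agonist, rose by 1.38 ± 0.29 (adjusted p = 0.00111). Apln, a peptide of tip cells, fell by 1.56 ± 0.17 (adjusted p = 3.43e-06), and Pgf, the placental growth factor gene, fell by 0.86 ± 0.12 (adjusted p = 3.13e-05).

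Hypoxia and glycolysis genes rose in 18 and fell in 2 of 33 cases, with a median of 0.33. Egln3, a prolyl hydroxylase that HIF induces, was at 242, 215, 269, 228 and 283 CPM in Vehicle and 628, 544, 614, 556 and 647 CPM in Combo (1.27 ± 0.11, adjusted p = 2.58e-07). Ndrg1, a stress gene induced in low oxygen, was at 721, 428, 457, 366 and 539 CPM and 1991, 1604, 1417, 1135 and 1705 CPM (1.65 ± 0.21, adjusted p = 1.41e-05). Both were higher in Combo than in either single-inhibitor group, Egln3 by 0.78 ± 0.11 (adjusted p = 7.74e-05) against PI3Ki and 0.51 ± 0.11 (adjusted p = 0.00487) against SHP2i. Of the glycolytic enzymes named, Aldoa rose by 0.33 ± 0.093, and Ldha, Pkm and Eno1 were at 0.10 ± 0.10, 0.008 ± 0.081 and 0.16 ± 0.08, short of the threshold. Pfkfb4, a regulator of glycolysis, fell by 1.26 ± 0.17 (adjusted p = 2.38e-05). Eno1 passed the test without Combo replicate 3 (adjusted p = 0.0339).

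Of the mural and mesenchymal genes, Acta2, the smooth muscle actin, was at 70.5, 56.6, 56.6, 46.8 and 48.6 CPM in Vehicle and 20.3, 23.9, 23.4, 10.3 and 14.8 CPM in Combo and fell by 1.59 ± 0.33 (adjusted p = 0.00108), while Notch3, a receptor of pericytes, rose by 1.15 ± 0.24 (adjusted p = 0.00103). The pericyte and smooth muscle list had 5 of 15 lower and 1 higher, and the fibroblast list 5 of 20 lower and 2 higher. Of all genes, 19.7% were lower and 23.9% higher. The higher members of the fibroblast list were Pdgfra and Dcn, which encodes decorin and was at 194 to 289.6 CPM in Vehicle and 409 to 1001 CPM in Combo (1.39 ± 0.24). Lum, which encodes the related lumican, fell, with 30.4 to 42.98 CPM in Vehicle and 6.35 to 23.7 CPM in Combo (-1.51 ± 0.29). Lower fibroblast genes numbered 2 without Vehicle replicate 1 or Combo replicate 4, 3 without Vehicle replicate 3 or Combo replicate 1 or 5 and 9 without Combo replicate 3.

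Of 37 collagen genes, 8 were higher and 7 lower, which is close to the background of 23.9% and 19.7% of all genes tested. Col1a1, the main fibrillar collagen, was at 2023, 793, 1630, 1097 and 1564 CPM in Vehicle and 413, 915, 1011, 271 and 204 CPM in Combo, with overlap through replicates 2 and 3 of Combo (-1.34 ± 0.44, adjusted p = 0.0206). The basement membrane collagen gene Col4a5 was at 20.5, 26.1, 28.4, 27.8 and 30.8 CPM and 61.9, 75.1, 72.9, 85.1 and 159.9 CPM (1.77 ± 0.22, adjusted p = 1.31e-05), and its neighbor Col4a6 rose by 1.71 ± 0.27 (adjusted p = 9.94e-05). Col23a1 rose by 2.08 ± 0.36 (adjusted p = 0.000251), and Col15a1, a collagen of vessel basement membranes, fell by 1.08 ± 0.18 (adjusted p = 0.000147). The number of lower collagen genes was 3 without Vehicle replicate 1, 4 without Vehicle replicate 3 or Combo replicate 1 or 4 and 12 without Combo replicate 3, and the call of Col1a1 was lost without Vehicle replicate 1 or Combo replicate 4 (adjusted p from 0.0519 to 0.0533).

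Of 11 laminin genes, 4 were higher and 5 lower, and the number higher was 2 without Vehicle replicate 2. Lama5 and Lamb2 rose by 1.04 ± 0.199 and 0.94 ± 0.14. Lama3 and Lamb3, which encode chains of laminin-332, the epithelial anchoring laminin, fell, with -2.02 ± 0.35 (adjusted p = 0.000228) for Lama3 and -1.805 ± 0.48 (adjusted p = 0.00624) for Lamb3. In SHP2i alone Lamb3 was lower as well (-2.14 ± 0.53, adjusted p = 0.0153). Itga10, a collagen-binding integrin chain, had the largest change of the integrins. It lies at chr3:96645584-96664519 and was at 5.96, 7.59, 6.71, 10.6 and 6.67 CPM in Vehicle and 45.3, 55.1, 77.4, 96.8 and 132 CPM in Combo, an increase of 3.43 ± 0.296 (adjusted p = 2.9e-07), and it exceeded SHP2i by 2.87 ± 0.31 (adjusted p = 3.02e-05) and PI3Ki by 2.71 ± 0.31 (adjusted p = 8.32e-06). Itga5, the fibronectin receptor chain, fell by 0.76 ± 0.104, and Itgav rose by 0.73 ± 0.11. Of 24 matrix proteases, their inhibitors and related genes, 6 were higher and 8 lower, beside 23.9% and 19.7% of all genes. Mmp11 was at 26.6, 23.5, 24.8, 25.2 and 28.7 CPM and 46.4, 55.7, 59.7, 56.9 and 60.2 CPM (1.11 ± 0.087, adjusted p = 1.52e-07), and Timp2 and Timp4, which encode inhibitors of these proteases, rose by 0.94 ± 0.11 and 3.41 ± 0.54. Mmp25 and Plaur, the urokinase receptor gene, fell (-2.69 ± 0.396 and -1.02 ± 0.11).

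Of the 15 genes with the largest rises among those without overlap, 5 were Clca1, Reg1 and 3 Sprr2a genes, which secretory or barrier epithelia express. Clca1 (chr3:145004537-145032776), a secreted protein of goblet cells, was at 2.26, 2.74, 0.436, 1.31 and 1.003 CPM in Vehicle and 213, 45.96, 153, 65.3 and 39.5 CPM in Combo (6.05 ± 0.81, adjusted p = 2.42e-05). Sprr2a1, a cornified envelope protein of skin and stressed gut, was at 0.554, 0.469, 0, 0.369 and 0 CPM and 136, 30.7, 32.3, 29.6 and 13.4 CPM, with replicate 1 highest (7.41 ± 1.05, adjusted p = 3.84e-05). The Vehicle level of Sprr2a1 was close to the floor, so the size of its fold is uncertain. Sprr2a1, Sprr2a2 and Sprr2a3 are near-identical copies, so the share of each is uncertain. Reg1, a secreted lectin, was at 3.05, 1.68, 2.703, 1.72 and 1.66 CPM and 21.8, 17.9, 39.2, 8.12 and 7.84 CPM (3.13 ± 0.44, adjusted p = 3.64e-05), and it was raised in SHP2i alone by 2.43 ± 0.45 (adjusted p = 0.00233) and not in PI3Ki (-0.47 ± 0.47, adjusted p = 0.652). Its difference between Combo and SHP2i did not pass the test (0.704 ± 0.43, adjusted p = 0.249). Clca1 was at 2.79 ± 0.79 (adjusted p = 0.0298) in SHP2i and 2.23 ± 0.796 (adjusted p = 0.121) in PI3Ki against Vehicle, and was higher in Combo than in SHP2i, by 3.25 ± 0.75 (adjusted p = 0.00592), and than in PI3Ki, by 3.82 ± 0.77 (adjusted p = 0.00109). Of 18 mucosal secretory genes 8 were higher and 1 lower, the latter being Clca2, which was at 9.58 to 15.6 CPM in Vehicle and 1.02 to 1.66 CPM in Combo. Replicate 1 stood out in some mucosal risers, as Muc13 and Spdef held 21.1 and 1.84 CPM there and 3.28 to 4.21 and 0.179 to 0.648 CPM in the other Combo tumors. Without Combo replicate 1 the rise of Muc13 was 1.54 (adjusted p = 0.0148), and the number of higher mucosal genes was 5 without Vehicle replicate 5 or Combo replicate 1. A further mucosal gene fell when Combo replicate 3 was left out (2 without Combo replicate 3 and 2 without both Combo replicates 3 and 4).

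Other large risers came from several classes. Cadps, a protein of dense-core vesicle release, was at 0.693, 1.49, 1.22, 1.35 and 1.31 CPM in Vehicle and 26.4, 29.4, 28.6, 32.5 and 41.4 CPM in Combo (4.695 ± 0.49, adjusted p = 2.26e-06). Zbtb16, a transcription factor known as a target of steroid receptors, was at 0.646, 0.508, 0.785, 0.492 and 0.742 CPM and 4.64, 4.07, 3.83, 4.15 and 4.34 CPM (2.72 ± 0.31, adjusted p = 4.64e-06), and it had risen in PI3Ki by 2.10 ± 0.32 (adjusted p = 0.000641) and in SHP2i by 1.41 ± 0.32 (adjusted p = 0.00926). Car4, a membrane carbonic anhydrase, rose by 3.25 ± 0.46 (adjusted p = 3.71e-05) and Crabp2, a retinoic acid carrier, by 2.82 ± 0.599 (adjusted p = 0.00123). Acute phase and complement genes had 8 of 21 higher and 2 lower. Cp, the copper carrier ceruloplasmin, was at 488, 408, 498, 469.7 and 526 CPM and 1172, 1399, 1097, 1675 and 1797 CPM (1.58 ± 0.16, adjusted p = 1.79e-06), and C3 rose by 1.83 ± 0.36 (adjusted p = 0.000599). Of 27 epithelial genes 6 were higher and 2 lower, shares below the 23.9% and 19.7% of all genes tested. The other 19 did not pass, and the list's median was 0.22. Elf3 and Klf5, factors of epithelial differentiation, rose by 1.30 ± 0.27 and 0.93 ± 0.16, and Krt8 fell by 0.51 ± 0.13. Lower epithelial genes numbered 1 without Vehicle replicate 1, 2, 3 or 5 or Combo replicate 4 or 5.

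**Figure D5:**
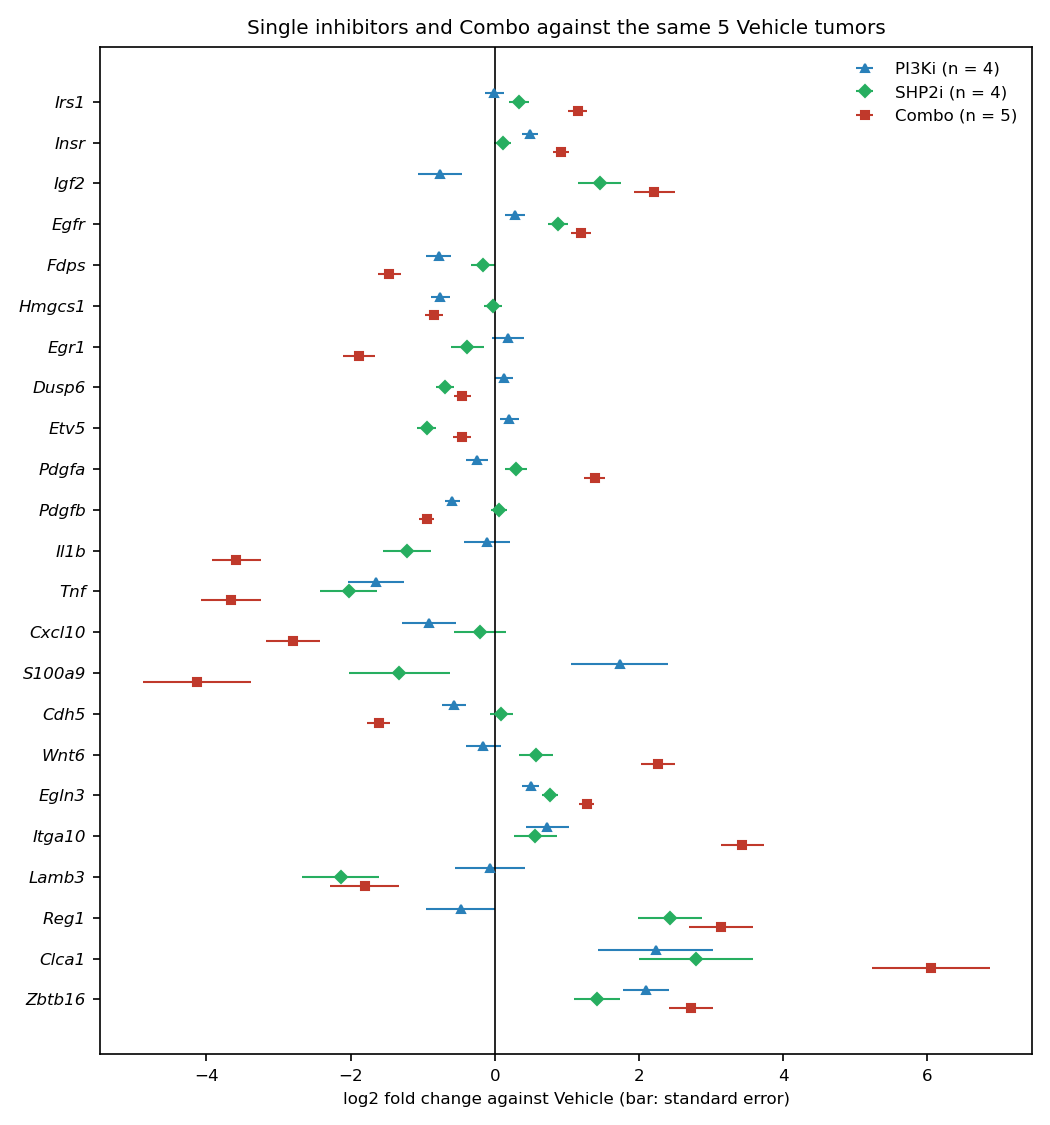
Log2 fold change against the same 5 Vehicle tumors (x axis, bars are standard errors) of PI3Ki (n = 4), SHP2i (n = 4) and Combo (n = 5) for 23 genes named in the text. Combo lay farthest from 0 for Irs1, Fdps, Egr1, Cdh5, Il1b and Itga10. Combo and SHP2i lay close together for Egfr, Dusp6 and Lamb3.

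Proliferation genes were lower by small amounts in the median, and the Combo tumors differed among themselves. The mean log2 level of the G2 and M phase list relative to the Vehicle mean was 0.26, -0.17, -0.38, -0.87 and -1.09 in Combo replicates 1 to 5. It was -0.13 to 0.12 in Vehicle. In 0 genes of that list did every Combo tumor lie below every Vehicle tumor, against 13.4% of all genes. Of 22 G1 and S phase genes 12 were lower and 0 higher (median -0.38), and of 23 G2 and M phase genes 10 were lower and 0 higher (median -0.41). Cdt1, which licenses origins, was at 58.1, 57.03, 55.2, 70.2 and 65.7 CPM in Vehicle and 47.2, 44.6, 36.1, 41.2 and 29.9 CPM in Combo (-0.62 ± 0.12, adjusted p = 0.000629), and the helicase subunit gene Mcm5 fell by 0.78 ± 0.18 (adjusted p = 0.00202). Mki67 was at 222, 150.2, 191, 241 and 256 CPM and 323, 267, 250.5, 136 and 124 CPM, highest in replicate 1 and lowest in replicates 4 and 5, and did not pass the test (0.053 ± 0.23, adjusted p = 0.871). Cdkn1a, the inhibitor p21, fell by 0.93 ± 0.204 (adjusted p = 0.00153). The number of lower G1 and S phase genes was 6 without Vehicle replicate 4 or Combo replicate 3 or 5, 7 without Combo replicate 4 and 5 without both Combo replicates 3 and 4, and that of lower G2 and M phase genes was 4 without Combo replicate 4, 5 without Vehicle replicate 1 or Combo replicate 5, 6 without Vehicle replicate 2 or 4 or Combo replicate 3, 18 without Combo replicate 1 and 1 without both Combo replicates 3 and 4.

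Of 15 BCL2 family genes, 4 were higher and 6 lower. Beside Bmf, the BH3-only gene Bcl2l11, which encodes BIM, rose by 0.59 ± 0.15 (adjusted p = 0.00477), and the survival genes Bcl2 and Bcl2l1 rose by 0.601 ± 0.17 and 0.36 ± 0.13. Mcl1 was at 304, 321, 321, 309 and 301 CPM in Vehicle and 190.3, 231, 255, 255 and 190.4 CPM in Combo and fell by 0.47 ± 0.11 (adjusted p = 0.0025), and Pmaip1, which encodes NOXA, fell by 1.25 ± 0.21. Bcl2a1b, a survival gene of blood cells, fell by 2.63 ± 0.23 and has near-identical copies. The call of Bcl2l1 was lost without Vehicle replicate 3, 4 or 5 or Combo replicate 4 or 5 (adjusted p from 0.0554 to 0.107).

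Stress and biosynthetic programs moved in part. ATF4 targets had 4 of 24 higher and 8 lower, beside 23.9% and 19.7% of all genes. Mthfd2, a mitochondrial folate enzyme, was at 40.2, 47.6, 41.9, 47.3 and 42.6 CPM in Vehicle and 27.8, 16.8, 14.9, 12.5 and 6.02 CPM in Combo, highest in replicate 1 and lowest in replicate 5 (-1.49 ± 0.27, adjusted p = 0.000367). Slc7a11, the cystine transporter, was at 64.9, 46.4, 65.4, 66.05 and 89.7 CPM and 145, 107, 119, 253 and 251 CPM and rose by 1.395 ± 0.26 (adjusted p = 0.000371). Hmox1, a target of NRF2, fell by 1.52 ± 0.33 (adjusted p = 0.00148), though 8 of 14 NRF2 targets rose and 3 fell. Genes of mitochondrial ribosomes were lower in 32 and higher in 1 of 77 cases, by little (median -0.21, Mrpl3 -0.51 ± 0.067), and those of cytosolic ribosomes were lower in 3 of 71, at a share below the 19.7% of all genes. Unfolded protein response genes were lower in 8 of 19, with Sdf2l1 at -1.12 ± 0.197. Of 30 lysosomal genes 9 fell and 5 rose, beside 19.7% and 23.9% of all genes. The deepest fall was that of Ctsc, a protease that activates the enzymes of neutrophil granules, with 574 to 876 CPM in Vehicle and 33.6 to 92.97 CPM in Combo (-3.52 ± 0.299). YAP and TEAD genes rose in 6 of 13 cases and fell in 0. Tead1 was at 134, 90.8, 131, 146 and 171 CPM and 256, 314, 265, 284 and 338 CPM (1.12 ± 0.15, adjusted p = 2.28e-05), whereas Ccn1 and Ccn2, the usual targets, differed by 0.13 ± 0.12 and -0.61 ± 0.25. The number of higher NRF2 targets was 5 without Vehicle replicate 1 or Combo replicate 5, that of lower cytosolic ribosome genes 1 without Vehicle replicate 2 or Combo replicate 3, 12 without Combo replicate 4 and 5 without both Combo replicates 3 and 4 and that of lower YAP and TEAD genes 1 without Combo replicate 4 or 5. Ccn2 passed the test without Combo replicate 4 or 5 (adjusted p from 0.0173 to 0.0253).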

How the data were processed

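RNA of 18 tumors was sequenced as poly(A)-selected, directional libraries, read in pairs on a NextSeq 500. The authors trimmed reads with cutadapt, aligned them to mouse build GRCm38 with STAR in 2 passes, obtained counts per gene by qCount (QuasR), and deposited the raw counts as 1 table per tumor. Annotation, tool versions and the strand setting of the counting are not given in the sources used here. The labels also name build hg19, whose role is not stated.

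The counts were filtered with filterByExpr (a count of 10 in a tumor of average depth, 15 in all), scaled by TMM and fitted over all 18 tumors with the quasi-likelihood test of edgeR 4.0.16 in R 4.3.3. P-values were adjusted by Benjamini-Hochberg over the 15282 genes tested. They set a difference between groups against the spread between tumors within groups, estimated over all 18 tumors with 14 residual degrees of freedom. CPM were computed from the TMM-scaled library sizes. The standard error given with a log2 fold change is the size of that change divided by the square root of the F statistic of its test. It was not estimated separately by the fit. Gene lists were compared by counts and medians. Genes were named by a rule of size of change among genes without overlap between groups (15 in each direction), the smallest p (6) and the highest level (4) in each list, all members of lists of 20 or fewer, and the genes the study names. Some genes that the rule names are not reported here. The members, lists and rule were chosen with earlier results of these data known. Symbols matched for 22760 of 22792 genes (RefSeq, GRCm38.p6). DESeq2 1.42.0, limma voom 3.58.1, other scalings, filters and sample sets, a replicate block and leaving out tumors were tried as alternatives, and the edgeR, voom and DESeq2 fits were tested on simulated data. PI3Ki has no replicate 4 and SHP2i no replicate 1 among the samples used here.

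Of the 212 genes named, 74 share part of their locus with another annotated gene, so some reads may belong to that gene: Pik3ca, Igf2, Tigit, Akt1, Angpt1, B2m, Bcl2, Bcl2l1, Bcl2l11, Braf, Ccl4, Ccn2, Ccnd1, Cd163, Cd274, Cd47, Cdh5, Ciita, Clec9a, Col15a1, Col4a6, Cp, Cr2, Csf3, Cxcl10, Cxcl16, Dll4, Dusp6, Egfr, Eng, Ephb1, Erbb2, Fgf1, Fgfr1, Fosl1, Foxo3, Foxp3, Gadd45a, Hbegf, Igf1, Igf1r, Igfbp7, Il1b, Il33, Il34, Il6, Inpp5d, Lama3, Lama5, Lamb3, Ldha, Mmp25, Mmp8, Muc13, Nos3, Notch2, Notch3, Nrg1, Pdgfd, Pik3ip1, Pkm, Ror1, Siglece, Siglech, Sos1, Timp2, Timp4, Treml4, Txnip, Vegfc, Vsir, Wnt6, Zbtb16 and Zbtb46.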

Additional observations from a re-analysis of the deposited data

Results flagged for a closer look

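In 26 of 424 groups of 5 tumors (6.13%) formed by the genes named, 1 tumor lay far from the other 4 by Dixon's criterion at the 95% level, which chance alone passes in about 1 of 20 groups. Values are in CPM, with the range of the other tumors of the group in parentheses. Combo replicate 1 held Irf7 at a high 39.7 (18.1 to 21.9), Muc13 at a high 21.05 (3.28 to 4.21), S100a9 at a high 12.25 (0.930 to 3.31), Spdef at a high 1.84 (0.179 to 0.648), Sprr2a1 at a high 136 (13.4 to 32.3), Sprr2a2 at a high 336 (45.2 to 88.2) and Sprr2a3 at a high 116 (10.8 to 37.3). Combo replicate 2 held Fads2 at a high 22.6 (15.9 to 17.5). Combo replicate 3 held Col15a1 at a high 74.98 (34.1 to 43.0), Dusp5 at a high 6.81 (3.02 to 3.84) and Jchain at a high 475 (4.86 to 65.2). Combo replicate 4 held Klf5 at a high 22.8 (14.35 to 16.3) and Pdgfd at a low 2.20 (4.03 to 4.49). Combo replicate 5 held Angpt1 at a high 325 (96.2 to 155.5), Col4a5 at a high 159.9 (61.9 to 85.1), Col4a6 at a high 14.6 (5.68 to 6.215), Fgfr1 at a high 217 (149 to 168), Il34 at a high 53.85 (31.8 to 37.95), Lamb2 at a high 201 (119 to 133) and Pdgfra at a high 1026 (464 to 604.5). Vehicle replicate 1 held C1qb at a low 346 (469.7 to 497), Elf3 at a high 5.955 (4.15 to 4.665), Il6 at a high 2.95 (1.64 to 1.875), Sirpb1c at a low 17.2 (28.4 to 32.2) and Vegfa at a high 148 (90.5 to 94.97). Vehicle replicate 3 held Cxcr2 at a high 15.4 (7.63 to 9.78). No cause of these values was tested.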

How the results depend on the processing

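Fewer counts passed with a stricter fold rule and more without one, by construction. With no fold limit 3650 genes were higher and 3007 lower than in Vehicle, 3375 differed from SHP2i and 5756 from PI3Ki, and with glmTreat, which tests against the fold limit itself, the numbers were 108, 410, 66 and 562. Under DESeq2, limma voom, the other scalings and the other filters these 4 counts stayed within 1.5 times their value. DESeq2 called 600 genes higher and 1072 lower, of which 587 and 1034 were called by edgeR as well. Leaving out 1 tumor at a time gave 508 to 654 higher and 928 to 1256 lower genes against Vehicle, 541 to 916 genes against SHP2i and 1381 to 1938 against PI3Ki. Combo replicates 3 and 4 left out together gave 585 higher and 1361 lower genes. A fit of only the 2 groups compared gave 520 higher and 995 lower genes, 501 against SHP2i and 1346 against PI3Ki. With the replicate number as a block in that fit, 471 genes were higher and 1073 lower, 302 differed from SHP2i and 1130 from PI3Ki, where tumors without a partner were also dropped. The deviations of Combo and Vehicle tumors with the same number had correlations of 0.366, -0.286, -0.031, 0.350 and -0.047. Between tumors with different numbers they ran from -0.442 to 0.252, so replicates 1 and 4 lay above that range and the others inside it. So few values cannot decide whether the number paired the tumors, and PI3Ki and SHP2i were not checked.

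Of 212 genes named, 179 passed the test, none of which changed direction under any of 20 alternatives, and 168 of them passed under each. Beside the tumors named above, calls were lost for Bcl2l1, Fgfr1, Gadd45a, Ptpn11, Shc1 and Spdef under another tool, scaling, sample set or the block. Genes that did not pass changed sign as follows, in log2 units: Ccnd1 -0.012 and Pkm -0.008 with DESeq2; Cd209a -0.079, Cd274 -0.015, Fasn 0.14, Foxo1 -0.12 and Ltf -0.017 with limma voom with quality weights; Ccnd1 -0.012 and Pkm -0.008 with RLE size factors; Ccnd1 -0.052, Cd274 -0.025, Foxo1 -0.022 and Pkm -0.046 with upper quartile factors; Ccnd1 -0.058, Cd274 -0.029, Foxo1 -0.028 and Pkm -0.053 with library totals alone; Ccnd1 -0.023, Cd274 -0.009 and Pkm -0.02 with every gene with a count; Ccnd1 -0.016 and Pkm -0.012 with the filter of CPM over 1 in 5 tumors; Ccnd1 -0.016 and Pkm -0.012 with a fit of only the 2 groups; Ccnd1 -0.024, Cd209a -0.23, Cd274 -0.04, Foxo1 -0.001, Mki67 -0.036 and Pkm -0.018 with the replicate block; Ccnd1 -0.007, Ccr7 -0.34, Cd209a -0.27, Foxo1 -0.031, Jchain -0.47 and Pdgfd 0.032 with Combo replicates 3 and 4 left out. Over the fits without 1 tumor the values ran for Axl from -0.104 to 0.041, Ccnd1 from -0.08 to 0.063, Ccr7 from -0.02 to 0.52, Cd209a from -0.48 to 0.404, Cd274 from -0.15 to 0.16, Fasn from -0.29 to 0.103, Foxo1 from -0.103 to 0.11, Il6 from -0.19 to 0.64, Ltf from -0.052 to 0.46, Mki67 from -0.12 to 0.203, Pdgfd from -0.15 to 0.075 and Pkm from -0.055 to 0.044. Of 1680 counts over 42 gene lists, 105 moved by over 1.5 times, mostly counts that were small. The cause of these changes was not tested.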
